A study of Mus musculus with 24 samples.

Results

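The 8 genes described here are Scd1, Scd2, Fasn, Acaca, Acly, Srebf1, Srebf2 and Sqle, which encode enzymes and regulators of fatty acid and cholesterol synthesis. They were taken by name, as 8 of the 35868 gene symbols that the transcript tables resolve to. Scd1 was chosen by its measured level, which was lower in Cat-Tg than in WT CD8+ T cells after transplantation, and the other 7 were added because they belong to the same pathway. The levels of all 8 genes in that one contrast are therefore given as values with no test, and Scd1 was not tested in any comparison that uses the CD8+ post-transplant libraries. RNA-seq was performed on sorted T cells in 24 libraries, 3 for each of 8 groups, to ask how β-catenin overexpression changes donor T cells before and after allogeneic transplantation. Cat-Tg mice are heterozygous for a transgene of human β-catenin that lacks its N-terminal part, cloned in the p1017 vector, which carries the proximal Lck promoter active in T cells, with founders on FVB crossed to C57BL/6. WT mice are C57BL/6, and donors were 8 to 12 weeks old. The 3 libraries of a group come from 3 mice or 3 recipients, and CD4+ and CD8+ T cells were sorted from the same animals. The 4 pre-transplant groups (pre-tx) are CD8+ or CD4+ T cells sorted from fresh spleens of Cat-Tg or WT mice. For the 4 post-transplant groups (post-tx), Cat-Tg or WT CD4+ and CD8+ T cells were mixed in equal parts and given, with T cell-depleted WT bone marrow, to lethally irradiated BALB/c recipients. Donor T cells that carry the H-2Kb antigen were sorted from the spleens of these recipients on day 7. Wherever Cat-Tg and WT are compared after transplantation, both therefore carry the irradiated allogeneic host and the WT marrow.

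Cells make palmitate from citrate in the cytosol. Acly, ATP citrate lyase, splits citrate to acetyl-CoA, Acaca, acetyl-CoA carboxylase, makes malonyl-CoA from it, and Fasn, fatty acid synthase, builds the saturated chain. The stearoyl-CoA desaturases Scd1 and Scd2 then place a double bond in saturated acyl chains, which makes the monounsaturated fatty acids of membranes and stored lipid. Scd1 is best known as an enzyme of liver, fat and skin, and Scd2 as the more widely expressed form. Sqle, squalene epoxidase, carries out an oxygen-dependent step of cholesterol synthesis. Srebf1 and Srebf2 encode the sterol regulatory element-binding proteins (SREBPs), membrane-bound transcription factors that are released when sterols are low. SREBP-2 is known mainly for genes of cholesterol synthesis and uptake, and SREBP-1 for genes of fatty acid synthesis. Activated T cells are known to turn on this program as they grow and divide.

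Scd1 and Scd2 are neighbours on chromosome 19, in opposite orientation, and similar enough that reads of one could be counted for the other. In GRCm38, Scd1 spans chr19:44394455-44407879 on the minus strand and Scd2 spans chr19:44293674-44306864 on the plus strand. Their coding sequences, of 1068 and 1077 bases, aligned over 1067 bases, of which 969 were identical (90.8%). The 90-base coding stretches below are from exon 4 of both genes (Scd1 at chr19:44401716-44401805, minus strand, and Scd2 at chr19:44299702-44299791, plus strand). They are shown because they are identical, so a read from here fits both genes.
Scd1 exon 4: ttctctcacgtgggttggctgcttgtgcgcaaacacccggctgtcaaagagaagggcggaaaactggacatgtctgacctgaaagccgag
Scd2 exon 4: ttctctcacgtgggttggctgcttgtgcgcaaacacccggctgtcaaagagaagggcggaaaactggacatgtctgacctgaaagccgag
The next stretches are from exon 2 (Scd1 at chr19:44406593-44406682, minus strand, and Scd2 at chr19:44294991-44295080, plus strand) and are the least alike, with 20 of 90 bases that differ. Capitals mark the bases that differ, and these are what lets a read be given to one gene.
Scd1 exon 2: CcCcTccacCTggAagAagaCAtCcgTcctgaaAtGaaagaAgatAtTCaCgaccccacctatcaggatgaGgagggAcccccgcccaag
Scd2 exon 2: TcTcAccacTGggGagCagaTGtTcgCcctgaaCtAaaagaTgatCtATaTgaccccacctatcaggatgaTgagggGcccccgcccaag
Over the whole transcripts, 398 of the 4880 distinct 31-base words of Scd1, or 8.16%, also occur in transcripts of another gene. Of these words, 253 occur in Scd2, more occur in Scd3 and some occur in Scd4. The share was 6.24% for Scd2. It was 33.4% for Acaca, mostly in the pseudogene Gm5182, whose own level was at most 2.69 CPM in any library. The shares were 1.38% for Srebf1, 1.35% for Srebf2 and 0.969% for Sqle, and there was no shared word for Fasn or Acly. The pseudoalignment behind the estimated counts splits reads by such words. In Cat-Tg CD8 post-tx, Scd3 was 0.147 to 1.42 CPM and Scd4 0.11 to 1.32 CPM, ranges that overlapped Scd1 (0.0978 to 0.612 CPM). In Cat-Tg CD4 post-tx, Scd3 (0.271 to 1.06 CPM) overlapped Scd1 (0.315 to 2.89 CPM). In WT CD8 post-tx, Scd1 (5.07 to 15.1 CPM) lay above Scd3 (0.957 to 2.57 CPM) and Scd4 (0.307 to 0.838 CPM). How reads were split among these genes was not tested.

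The other members lie on chromosomes 11 and 15. Fasn is at chr11:120805846-120824547, Acly at chr11:100476353-100528000 and Srebf1 at chr11:60199089-60222581, all on the minus strand, and Acaca is at chr11:84129672-84401651 on the plus strand. Srebf2 at chr15:82147181-82205379 and Sqle at chr15:59315077-59331192 are both on the plus strand. SREBPs act at promoters together with NF-Y, which binds CCAAT, and with Sp1, which binds GGGCGG, so the 250 bases before the start of transcription were read for these letters. RefSeq promoters in GRCm38.p6 were given for 5 of the 8 members. Those of 3 genes are shown, because among these 5 Fasn and Acly had the largest fold changes called between pre-tx and post-tx libraries and Srebf2 was the one called between genotypes. Capitals mark CCAAT and GGGCGG on either strand.
Fasn promoter, chr11:120824548-120824797, minus strand: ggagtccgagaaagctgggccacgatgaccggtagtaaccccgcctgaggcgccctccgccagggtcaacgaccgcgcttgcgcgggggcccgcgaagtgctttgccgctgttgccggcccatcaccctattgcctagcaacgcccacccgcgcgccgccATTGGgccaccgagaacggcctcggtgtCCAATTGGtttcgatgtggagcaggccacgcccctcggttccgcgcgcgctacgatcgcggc
Acly promoter, chr11:100528001-100528250, minus strand: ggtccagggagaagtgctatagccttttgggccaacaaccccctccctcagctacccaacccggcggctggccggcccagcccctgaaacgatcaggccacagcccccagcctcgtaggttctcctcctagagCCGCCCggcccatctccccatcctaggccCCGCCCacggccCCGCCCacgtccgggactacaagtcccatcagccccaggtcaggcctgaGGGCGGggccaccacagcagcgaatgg
Srebf2 promoter, chr15:82147019-82147268, plus strand: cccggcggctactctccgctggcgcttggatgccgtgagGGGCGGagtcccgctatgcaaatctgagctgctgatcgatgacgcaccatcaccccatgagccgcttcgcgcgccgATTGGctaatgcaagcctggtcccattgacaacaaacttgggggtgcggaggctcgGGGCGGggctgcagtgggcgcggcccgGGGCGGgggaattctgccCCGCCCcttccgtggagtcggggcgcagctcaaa
The Fasn promoter held CCAAT 3 times, at -90 to -86 and -59 to -55 on the opposite strand and at -62 to -58 on the gene's own strand, the last pair of matches overlapping. The Acly promoter held GGGCGG 4 times, and the Srebf2 promoter held it 4 times beside 1 CCAAT at -135 to -131. The table gives Srebf1 3 promoters, and a gene was counted if any of its promoters held the letters. Of the 5 members, 3 held CCAAT (Fasn, Srebf1 and Srebf2), against 37.5% of the 27025 genes in the table, and 3 held GGGCGG (Acly, Srebf1 and Srebf2), against 35.4%. Counted by promoter, 4 of the 7 held CCAAT, against 33.8% of 32851 promoters of the same length, and 4 held GGGCGG, against 32.7%. The sterol regulatory element written TCACNCCAC was in 0 of the 5 genes, against 1.22% of all genes, and the E-box CACGTG was in 0 of the 5, against 6.86%. In the wider list of cholesterol genes described further on, 14 of the 15 genes with a promoter in the table held CCAAT and 14 held GGGCGG. In the further list of fatty acid synthesis and desaturation genes, 10 of 13 held CCAAT and 10 held GGGCGG. These are matches of letters and not sites shown to be bound.

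Each library held between 11135713 and 50519825 estimated counts (median 27062440), so that 3 counts, taken as the limit of detection, were worth 0.0594 to 0.269 CPM, a unit that scales counts to the size of the library. The 6 libraries labelled WT pre-tx go against their cell type labels. Cd8a made up 50% to 63.9% of the summed Cd4 and Cd8a level in those labelled CD8+ and 52.4% to 65.4% in those labelled CD4+. In the other 18 libraries the share was 99% to 99.9% in CD8+ and 0.0895% to 3.39% in CD4+ T cells. The summed level of 12 B cell genes was 11200 to 15100 CPM in the libraries labelled WT pre-tx and 1050 to 3170 CPM in Cat-Tg pre-tx, and the sum of 12 T cell genes was 1980 to 3360 CPM against 5380 to 16000 CPM in all other libraries. Cat-Tg pre-tx libraries in turn held 452 to 509 CPM of 9 pancreatic acinar cell genes, against 16.6 to 35.1 CPM. WT CD8 post-tx replicate 2 also stood apart, with a scaling factor of 0.58 where the other libraries had 0.743 to 1.42. Cat-Tg and WT libraries carry different name prefixes, and the study had used the WT data in earlier work as well, so that genotype and sample series cannot be told apart. Mouse Ctnnb1 overlapped between Cat-Tg and WT in each of the 4 pairs of groups, which does not check the genotype since the transgene is human. In sorted bulk RNA, a gene read from fewer cells of a type and one read from less RNA per cell cannot be told apart.

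Among themselves the members differed widely in level and in spread. In TPM, which is scaled by transcript length as well and allows genes to be compared, the median over the 24 libraries was 66.1 for Srebf2, 48.9 for Acly, 38 for Srebf1 and 16.3 for Fasn. It was 7.99 TPM for Scd2, 7.01 TPM for Sqle, 2.68 TPM for Acaca and 2.08 TPM for Scd1. Scd1, the lowest of the 8 by this median, had the widest range: its highest group mean CPM was 743 times its lowest (204 times in TPM). Scd2 followed with 7.1 times (14.5 in TPM). For the other 6 the same ratio in CPM was 4.86 for Acly, 3.98 for Sqle, 3.91 for Fasn, 2.88 for Srebf2, 2.42 for Acaca and 2.39 for Srebf1. The plot of levels by library shows these ranges.

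**Figure D1:**
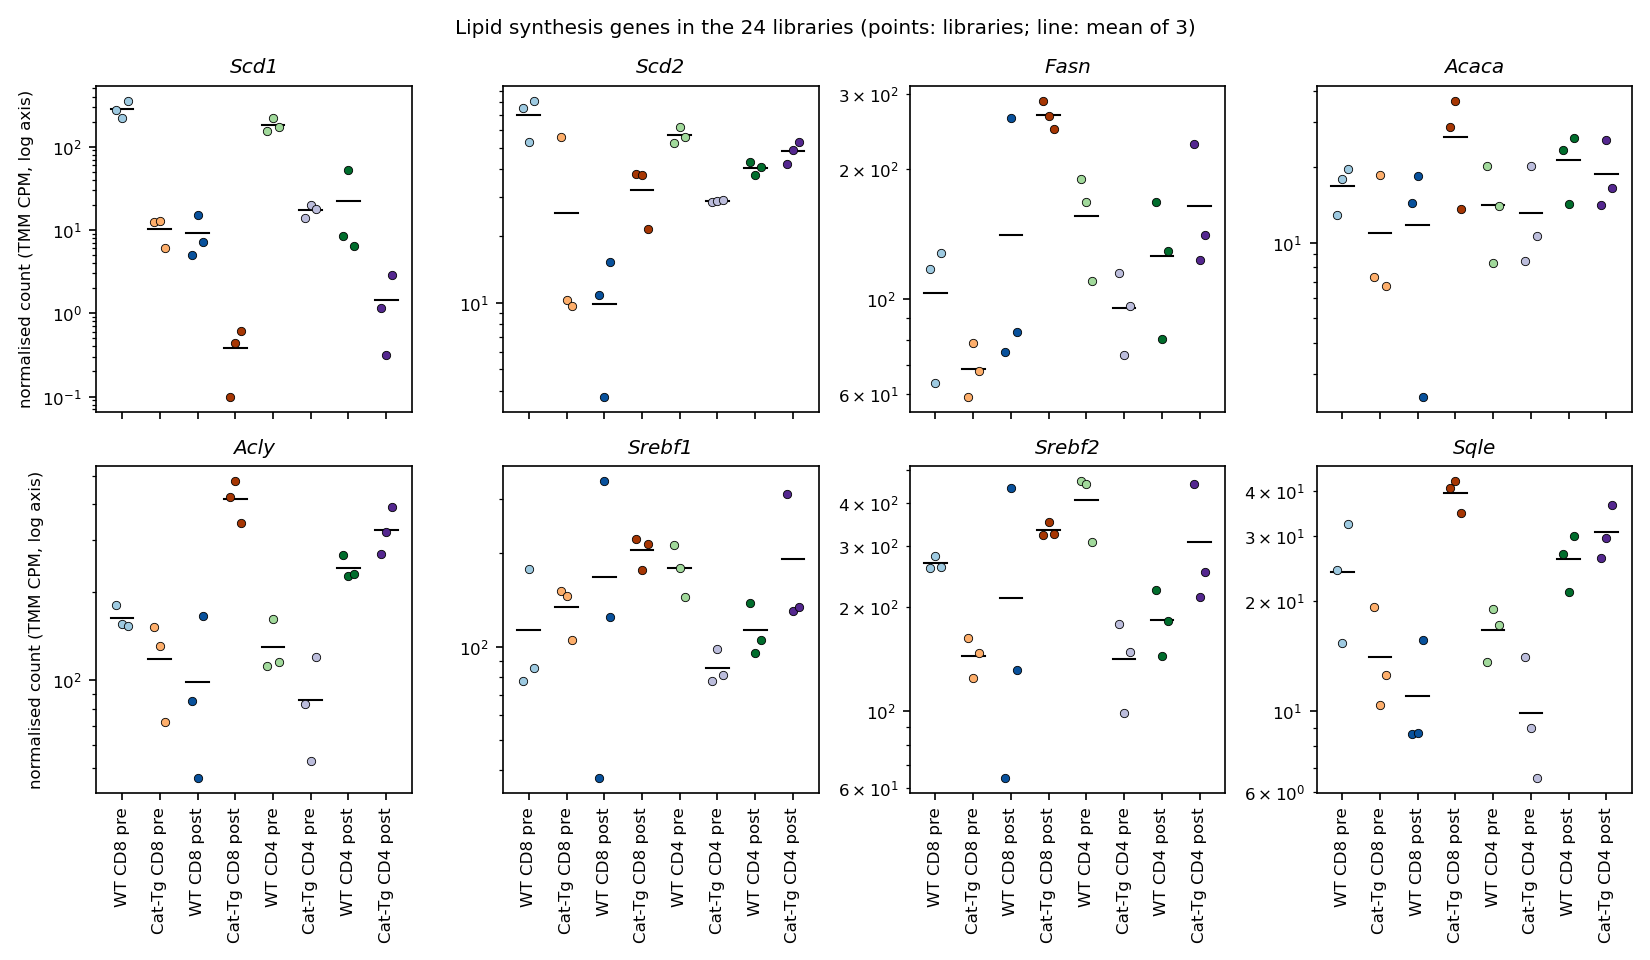
Level of each of the 8 genes in each of the 24 libraries, in CPM after TMM scaling with a log axis for each gene, a point for each library and a line for the mean of the 3 libraries of a group. Scd1 runs from 0.0978 CPM in a Cat-Tg CD8 post-tx library to 355 CPM in a WT-labelled CD8 pre-tx library, while the group means of Srebf1 and Srebf2 differ by at most 2.39 and 2.88 times.

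The levels of Scd1 lay in steps. It was 279, 220 and 355 CPM in the 3 WT-labelled CD8 pre-tx libraries and 154, 221 and 174 CPM in the WT-labelled CD4 pre-tx ones, the 2 highest groups, which overlapped. WT CD4 post-tx libraries had 8.38, 52.2 and 6.42 CPM and Cat-Tg CD4 pre-tx libraries 13.8, 20 and 18 CPM. The first of these groups spans the second, because its replicate 2 is the highest of the 6 values and its other 2 libraries are the lowest. Cat-Tg CD8 pre-tx followed with 12.4, 12.8 and 6.07 CPM and WT CD8 post-tx with 5.07, 15.1 and 7.26 CPM, which overlapped. The lowest groups were Cat-Tg CD4 post-tx, with 1.16, 0.315 and 2.89 CPM, and Cat-Tg CD8 post-tx, with 0.0978, 0.44 and 0.612 CPM. These 2 groups also overlapped, and every one of their libraries lay below every other library of the series. In Cat-Tg CD8 post-tx the values rest on 3, 12 and 19 estimated counts, whose exact 95% Poisson intervals were 0.619 to 8.77, 6.2 to 21 and 11.4 to 29.7 counts and cover counting error only. In nearly every other library the counts fell on the full-length transcript Scd1-201. In Cat-Tg CD8 post-tx that transcript had 0, 8 and 8 counts, and Scd1-203, a processed transcript of 750 bases, had 3, 3 and 11.

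Before transplantation, Scd1 was lower in Cat-Tg than in the libraries labelled WT in both cell types. In CD8+ T cells the mean was 10.4 ± 3.79 CPM (SD, n = 3) in Cat-Tg and 285 ± 67.7 CPM (n = 3) in WT, a 26.8-fold difference in fitted level. The log2 fold change was -4.74 (SE 0.625, adjusted p = 0.000474 by edgeR's quasi-likelihood test with Benjamini-Hochberg adjustment over all 15975 genes tested). In CD4+ T cells the means were 17.3 ± 3.15 and 183 ± 34.4 CPM (log2 fold change -3.17, SE 0.768, adjusted p = 0.00903). Neither pair of groups overlapped. With no filter on low counts the CD4+ adjusted p was 0.0817, and over its 15 alternatives it ran from 1.33e-05 to 0.088. The B cell genes moved with Scd1: all 12 were called lower in Cat-Tg in both cell types. Hepatocyte genes summed to 5.97 to 2480 CPM in the WT-labelled CD8 pre-tx libraries, of which the one with the lowest sum, replicate 3, had the highest Scd1. Their part in the Scd1 result was not tested, and no value without the libraries labelled WT pre-tx exists for these comparisons.

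After transplantation, Scd1 was lower in Cat-Tg in both cell types. The CD4 post-tx libraries come from the same recipients as the CD8 post-tx libraries whose difference chose the gene. No test of Scd1 that uses CD4 post-tx libraries is therefore independent of that choice. In CD4+ T cells the means were 1.45 ± 1.31 CPM in Cat-Tg against 22.3 ± 25.9 CPM in WT, and the groups did not overlap. The log2 fold change was -4.21 (SE 0.831, adjusted p = 0.00585). It was -2.55 (adjusted p = 0.0231) without WT replicate 2 and -5.46 without Cat-Tg replicate 3, the library with the highest Scd1 of its group. The call was lost with no filter on low counts (adjusted p = 0.0804), and over 16 alternatives the adjusted p ran from 8.37e-05 to 0.162. In CD8+ T cells, where the difference chose the gene, Scd1 was 0.383 ± 0.262 CPM in Cat-Tg against 9.14 ± 5.27 CPM in WT, 23.9-fold lower, or 16.1-fold lower without WT replicate 2. Hepatocyte genes moved in the same direction. Their summed level was 0.744 to 6.94 CPM in Cat-Tg CD4 post-tx and 155 to 595 CPM in WT CD4 post-tx, where 10 of the 10 were called lower in Cat-Tg. The highest WT sum was in replicate 2, the library with 52.2 CPM of Scd1. In CD8 post-tx the sums were 0.88 to 4.93 CPM in Cat-Tg against 85 to 280 CPM in WT. There, too, WT replicate 2 had the highest sum and the highest Scd1 of its group (15.1 CPM). Apoc3, Fga and Ahsg were at or under 3 counts in every Cat-Tg CD8 post-tx library, and Apoc3, Ttr and Fga in every Cat-Tg CD4 post-tx library. The summed adipocyte genes were 0.256 to 0.966 CPM in Cat-Tg CD8 post-tx and 3.47 to 7.71 CPM in WT CD8 post-tx, and 4.62 to 7.52 against 9.56 to 32.1 CPM in CD4 post-tx. Of these genes Adipoq, Cidec, Lep, Retn and Cfd were at or under 3 counts in every Cat-Tg CD8 post-tx library. The same held for Adipoq, Lep, Retn and Cfd in Cat-Tg CD4 post-tx, for Lep and Cfd in WT CD8 post-tx and for Adipoq, Lep and Cfd in WT CD4 post-tx. Summed B cell genes went the other way from Scd1 in CD4 post-tx, at 1610 to 3320 CPM in Cat-Tg and 707 to 800 CPM in WT. Of these 12 genes, 3 were called higher in Cat-Tg and 2 lower. In CD8 post-tx the B cell sums overlapped, at 768 to 798 CPM in Cat-Tg and 499 to 835 CPM in WT. The part of these cell types in the Scd1 level was not tested.

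Scd1 also fell from pre-tx to post-tx within a genotype. In Cat-Tg CD4+ T cells the log2 fold change was -3.89 (SE 0.822, adjusted p = 0.00216), and the groups did not overlap. From the libraries labelled WT CD4 pre-tx to WT CD4 post-tx it was -2.85 (SE 0.756, adjusted p = 0.0138), and -4.52 (adjusted p = 0.000395) without WT post-tx replicate 2. The WT call was lost with no filter on low counts (adjusted p = 0.118) and when only the 6 libraries compared were fitted (adjusted p = 0.0721), the range over 15 alternatives being 3.34e-05 to 0.118. In CD8+ T cells the means went from 10.4 to 0.383 CPM in Cat-Tg against from 285 to 9.14 CPM in WT, with no overlap in either genotype and no test. B cell genes fell in the same comparisons, 11 of 12 in Cat-Tg CD4, 12 of 12 in WT CD4, 9 of 12 in Cat-Tg CD8 and 12 of 12 in WT CD8. Of 10 hepatocyte genes, 10 fell in Cat-Tg CD4, 9 in Cat-Tg CD8 and 1 in WT CD8, and 0 were called by edgeR in WT CD4, where their median log2 fold change was -0.2. Their sums went from 23.1 to 774 CPM in WT-labelled CD4 pre-tx to 155 to 595 CPM in WT CD4 post-tx, ranges that overlap, and from 5.97 to 2480 to 85 to 280 CPM in WT CD8. The part of either cell type in the fall of Scd1 was not tested.

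**Figure D2:**
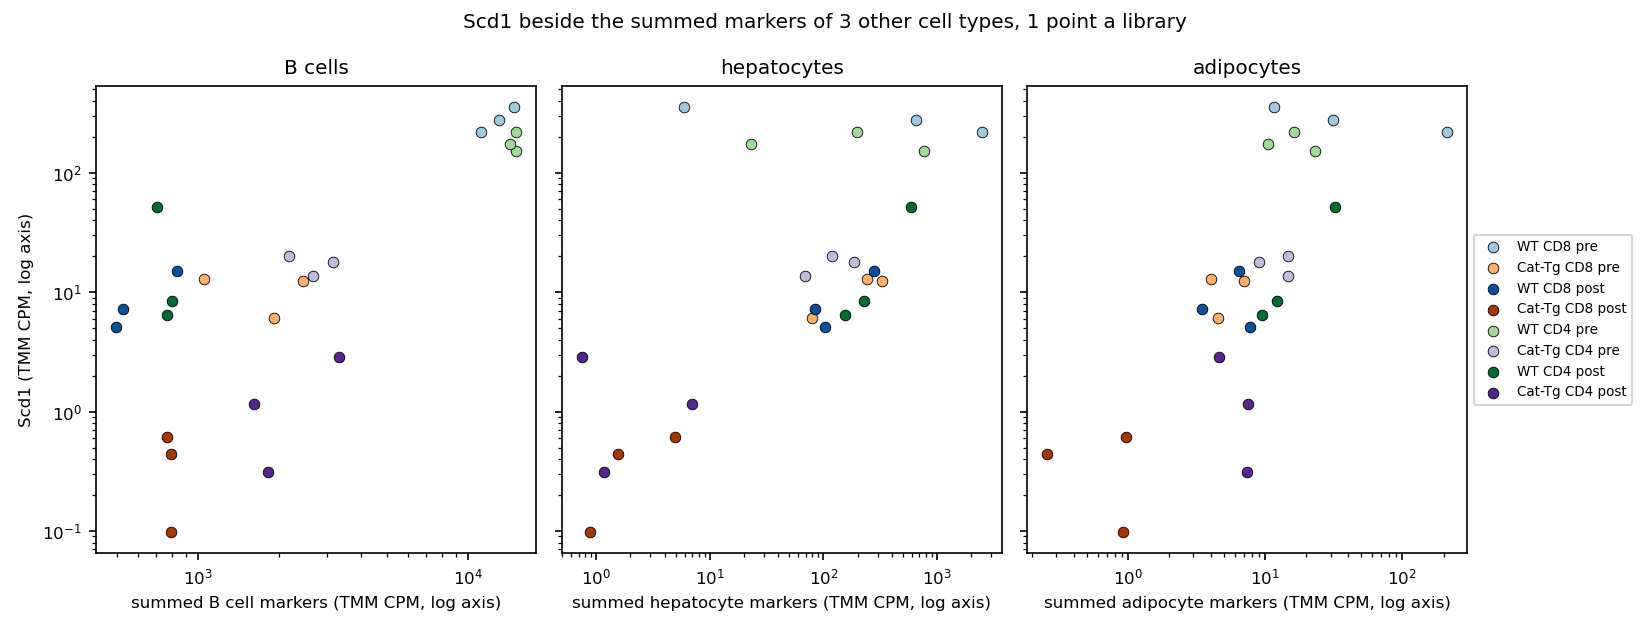
Scd1 in CPM against the summed CPM of 12 B cell genes, 10 hepatocyte genes and 8 adipocyte genes, all on log axes, with a point for each of the 24 libraries and a colour for each group. The 6 libraries labelled WT pre-tx hold the highest Scd1 (154 to 355 CPM) and B cell sums (11200 to 15100 CPM), and the 6 Cat-Tg post-tx libraries hold the lowest Scd1 and, at 0.744 to 6.94 CPM, low hepatocyte sums.

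Over the 24 libraries, log2 Scd1 had a Pearson r of 0.73 with the log2 sum of the B cell genes, 0.75 with that of the adipocyte genes, 0.68 with that of the hepatocyte genes and -0.72 with that of the T cell genes. For the other lists r was 0.36 (myeloid cells), 0.17 (red cells), -0.06 (pancreatic acinar cells) and -0.59 (dividing cells). These values, and the genes most like Scd1 given next, are descriptions over libraries that share groups and sample series, with no test. The libraries include the CD8 post-tx ones whose Scd1 level chose the gene. Among the 8822 genes with a mean of at least 10 CPM, the 5 most like Scd1 across the 24 libraries were Ralgps2 (Pearson r 0.895), AC125149.3 (0.895), Fcrl5 (0.891), Pkib (0.89) and Cr2 (0.889). Fcrl5 and Cr2, the complement receptor CD21, are surface receptors of B cells, and Cr2 is in the B cell list used here. The nearest genes to Scd2 were Slc29a3 (0.918), Kdm2a (0.902), Rfx5 (0.896), Naaa (0.884) and Gripap1 (0.878), and none of the 5 was shared with Scd1.

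Scd2 did not follow Scd1. The correlation of the 2 desaturases over the 24 libraries was 0.26. Scd2 was 75.9, 53.1 and 81.4 CPM in the WT-labelled CD8 pre-tx libraries and 10.8, 3.74 and 15.2 CPM in WT CD8 post-tx, where it was at its lowest. The log2 fold change was -2.7 (SE 0.705, adjusted p = 0.0114), and with an offset for gene length it was -2.06 (adjusted p = 0.0578), the only 1 of 15 alternatives that ended the call. It was 52.5, 62.1 and 56.1 CPM in the WT-labelled CD4 pre-tx libraries and 42.9, 37.7 and 40.9 CPM in WT CD4 post-tx, groups that did not overlap but did not pass the test. The post-tx minus pre-tx difference in Scd2 was lower in the libraries labelled WT CD8 than in those labelled WT CD4, by -2.33 on the log2 scale (SE 0.726, adjusted p = 0.03 for the difference), a call lost in 6 of 14 alternatives. The pre-tx libraries in it do not follow their CD8 and CD4 labels, so it does not compare the 2 cell types before transplantation. WT CD8 post-tx was also lower than WT CD4 post-tx (log2 fold change -2.03, SE 0.528, adjusted p = 0.0111). Without WT CD8 post-tx replicate 2, the library with 3.74 CPM, it was -1.47 (adjusted p = 0.0764), and over 16 alternatives the adjusted p ran from 0.00247 to 0.0764. In Cat-Tg CD8+ T cells the change did not pass the test: Scd2 was 55.9, 10.3 and 9.68 CPM pre-tx, replicate 1 being far above the other two, and 38.2, 37.6 and 21.5 CPM post-tx. Cat-Tg CD4+ T cells had 28.5, 28.8 and 29.1 CPM pre-tx and 42.4, 49 and 53.3 CPM post-tx. Before transplantation Scd2 was lower in Cat-Tg CD4+ T cells than in the libraries labelled WT CD4, which hold 52.4% to 65.4% Cd8a and the high B cell sums given above (log2 fold change -0.75, SE 0.241, adjusted p = 0.037), a call lost in 7 of 15 alternatives (adjusted p from 0.000499 to 0.0988). In CD8 post-tx Scd2 stood on the other side from Scd1, at 32.4 ± 9.45 CPM in Cat-Tg against 9.89 ± 5.76 CPM in WT, 3.28-fold higher with no overlap (2.5-fold without WT replicate 2).

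Of the enzymes of palmitate synthesis, Fasn had its highest mean CPM in Cat-Tg CD8 post-tx (249 to 289 CPM), apart from the group with the next highest mean. It overlapped WT CD8 post-tx, where 1 library had 264 CPM. In TPM its range of 23.5 to 30.7 also overlapped Cat-Tg CD4 post-tx (17 to 30.6). The mean CPM of Acly and Acaca was highest in Cat-Tg CD8 post-tx as well but overlapped the next group. In mean TPM Acly was highest in Cat-Tg CD4 post-tx (89.9 against 85.2) and Acaca in WT CD4 post-tx (3.7 against 2.76). Acly, at the head of the pathway, was 152, 131 and 72 CPM in Cat-Tg CD8 pre-tx and 422, 478 and 343 CPM post-tx (log2 fold change 1.82, SE 0.45, adjusted p = 0.0159). In Cat-Tg CD4+ T cells it went from 82.7, 53 and 120 to 269, 320 and 391 CPM (log2 fold change 1.6, SE 0.287, adjusted p = 0.000582). From the WT-labelled CD4 pre-tx libraries to WT CD4 post-tx it went from 112, 162 and 115 to 267, 227 and 231 CPM (log2 fold change 1.04, SE 0.283, adjusted p = 0.0148). None of these 3 pairs of groups overlapped, and every post-tx library was above every pre-tx library of its own genotype and cell type. WT CD8 was the exception, at 180, 156 and 153 CPM in the libraries labelled pre-tx, whose Cd8a share is 50% to 63.9%, and 84.8, 46.4 and 165 CPM post-tx, where the groups overlapped and the change did not pass the test. The post-tx minus pre-tx difference in Acly differed between libraries labelled WT CD8 and WT CD4 by -1.62 on the log2 scale (SE 0.526, adjusted p = 0.037), a call lost in 9 of 14 alternatives and resting on the same pre-tx libraries. WT CD8 post-tx was also lower than WT CD4 post-tx (log2 fold change -1.29, SE 0.375, adjusted p = 0.023), which without WT CD8 post-tx replicate 2 became -0.8 (adjusted p = 0.162) and over 16 alternatives had an adjusted p of 0.00573 to 0.183. In CD8 post-tx Acly was 415 ± 67.9 CPM in Cat-Tg against 98.8 ± 60.7 CPM in WT, 4.19-fold higher with no overlap (3.32-fold without WT replicate 2).
The rise in Cat-Tg CD8+ T cells was lost without post-tx replicate 2 (adjusted p = 0.0619) or without pre-tx replicate 2 or 3 (0.051 and 0.0759), and the adjusted p over 16 alternatives started at 0.00128. That in WT CD4 was lost without any one of 3 libraries, post-tx replicate 1 and pre-tx replicates 1 and 3 (adjusted p = 0.0516 to 0.11), and was 0.00579 at the lowest over 15 alternatives.

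Fasn, the next enzyme but one, rose in Cat-Tg CD8+ T cells from 58.9, 78.8 and 67.7 CPM pre-tx to 289, 267 and 249 CPM post-tx. The groups were far apart, and the log2 fold change was 1.98 (SE 0.48, adjusted p = 0.014). The call was lost without pre-tx replicate 1 (adjusted p = 0.0546) or 3 (0.0516), in 2 of 16 alternatives, the lowest adjusted p being 0.000169. Fasn passed no other test. It was 115, 73.8 and 96.1 CPM pre-tx and 229, 123 and 141 CPM post-tx in Cat-Tg CD4+ T cells, 190, 168 and 110 CPM in the WT-labelled CD4 pre-tx libraries and then 168, 80.4 and 129 CPM, and 117, 63.7 and 128 CPM in the WT-labelled CD8 pre-tx libraries and then 75.3, 264 and 83.4 CPM. In the last group replicate 2, the library that stood apart, held the high value, and the other two were below the Cat-Tg CD8 post-tx range. Mean Fasn in CD8 post-tx was 268 ± 20 CPM in Cat-Tg against 141 ± 106 CPM in WT, 1.9-fold higher with overlap, and 3.38-fold higher without overlap when WT replicate 2 was left out.
Acaca was low throughout, from 2.43 to 36.5 CPM over the 24 libraries, and passed no test. Its group means ran from 10.9 CPM in Cat-Tg CD8 pre-tx to 26.3 CPM in Cat-Tg CD8 post-tx, and every neighbour in the order of groups overlapped.

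The regulators Srebf1 and Srebf2 moved together (r = 0.78 over the 24 libraries), and Srebf2 moved in opposite directions from pre-tx to post-tx in the Cat-Tg and WT libraries labelled CD4. Srebf2 was 179, 99 and 148 CPM in Cat-Tg CD4 pre-tx and 463, 454 and 308 CPM in the WT-labelled CD4 pre-tx libraries, with no overlap. The log2 fold change was -1.3 (SE 0.315, adjusted p = 0.00821). From pre-tx to post-tx it rose in Cat-Tg to 455, 214 and 253 CPM (log2 fold change 0.8, SE 0.312, adjusted p = 0.0462) and fell in WT to 224, 145 and 182 CPM (log2 fold change -1.02, SE 0.313, adjusted p = 0.0271). After transplantation the 2 genotypes overlapped in CD4+ T cells. The genotype effect thus differed between the post-tx and pre-tx libraries labelled CD4, by 1.82 on the log2 scale (SE 0.442, adjusted p = 0.00972). Srebf1 had the same order. It was 77.4, 98.3 and 81.2 CPM in Cat-Tg CD4 pre-tx and 213, 180 and 145 CPM in the WT-labelled CD4 pre-tx libraries, with a log2 fold change of -0.83 that missed the threshold (adjusted p = 0.0816). Post-tx it was 311, 130 and 134 CPM in Cat-Tg (log2 fold change 0.85, SE 0.323, adjusted p = 0.0423) and 138, 95.6 and 105 CPM in WT. The genotype effect on Srebf1 differed between post-tx and pre-tx by 1.38 (SE 0.456, adjusted p = 0.0414), a call lost in 8 of 14 alternatives, whereas that of Srebf2 was lost in 0 of 14. One library, Cat-Tg CD4 post-tx replicate 1, carried both rises: without it the log2 fold changes were 0.28 for Srebf1 (adjusted p = 0.353) and 0.38 for Srebf2 (adjusted p = 0.274). It has the fewest counts of the 24 libraries (11135713), and its 8 red cell genes sum to 27000 CPM against 11000 and 4530 CPM in replicates 2 and 3. In the same comparison 6 of 8 red cell genes and 8 of 12 myeloid genes rose, and their part in the 2 rises was not tested. The calls were lost in 7 and 5 of 16 alternatives, with adjusted p from 0.00246 and from 0.00319. The fall of Srebf2 in WT CD4 was lost without any one of 4 libraries, post-tx replicates 2 and 3 and pre-tx replicates 1 and 2 (adjusted p = 0.0685 to 0.0958), and was 0.00469 at the lowest over 15 alternatives.
In the libraries labelled CD8 neither regulator passed a test. Srebf2 was 163, 125 and 147 CPM in Cat-Tg CD8 pre-tx, 324, 354 and 325 CPM post-tx, 259, 281 and 262 CPM in the WT-labelled CD8 pre-tx libraries and 64.2, 442 and 132 CPM in WT CD8 post-tx. Srebf1 was 151, 146 and 105 CPM and then 222, 177 and 214 CPM in Cat-Tg CD8, against 77.4, 178 and 85.2 CPM in the WT-labelled CD8 pre-tx libraries and then 37.7, 342 and 125 CPM. For both genes WT CD8 post-tx replicate 2 was the highest value of its group and lay above all 3 Cat-Tg CD8 post-tx libraries, and the other 2 WT libraries lay below them. The ratio of means in CD8 post-tx went from 1.57 to 3.4 for Srebf2 and from 1.22 to 2.51 for Srebf1 when that library was left out.

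Sqle, the cholesterol enzyme among the members, tracked Acly (r = 0.87 over the 24 libraries). It was 14, 9 and 6.57 CPM in Cat-Tg CD4 pre-tx and 26.2, 29.7 and 36.6 CPM post-tx, with no overlap (log2 fold change 1.32, SE 0.343, adjusted p = 0.00641). In Cat-Tg CD8+ T cells it was 19.2, 10.4 and 12.5 CPM pre-tx and 40.7, 42.4 and 34.8 CPM post-tx, also with no overlap, and the log2 fold change of 1.5 missed the threshold (adjusted p = 0.0525, from 0.0114 to 0.165 over 16 alternatives). The WT-labelled CD4 libraries had 13.6, 19 and 17.2 CPM pre-tx and 26.8, 21.1 and 30 CPM post-tx. The WT-labelled CD8 libraries had 24.3, 15.3 and 32.5 CPM pre-tx and 8.66, 8.71 and 15.6 CPM post-tx, lower post-tx in mean but overlapping, and neither WT change passed the test. The post-tx minus pre-tx difference in Sqle differed between libraries labelled WT CD8 and WT CD4 by -1.77 (SE 0.557, adjusted p = 0.0318), a call lost in 8 of 14 alternatives and resting on the pre-tx libraries that go against their labels. WT CD8 post-tx was below WT CD4 post-tx (log2 fold change -1.24, SE 0.397, adjusted p = 0.0397), and of -0.93 (adjusted p = 0.204) without WT CD8 post-tx replicate 2. With a replicate block it was -1.28 (adjusted p = 0.0842), and 11 of 16 alternatives ended the call. In CD8 post-tx Sqle was 39.3 ± 3.98 CPM in Cat-Tg against 11 ± 4.01 CPM in WT, 3.57-fold higher with no overlap (3.23-fold without WT replicate 2). The genes most like Sqle across libraries were Eif4g1 (Pearson r 0.937), Hcfc1 (0.931), Ap2b1 (0.927), Ubap2l (0.92) and Nckap1l (0.917).

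**Figure D3:**
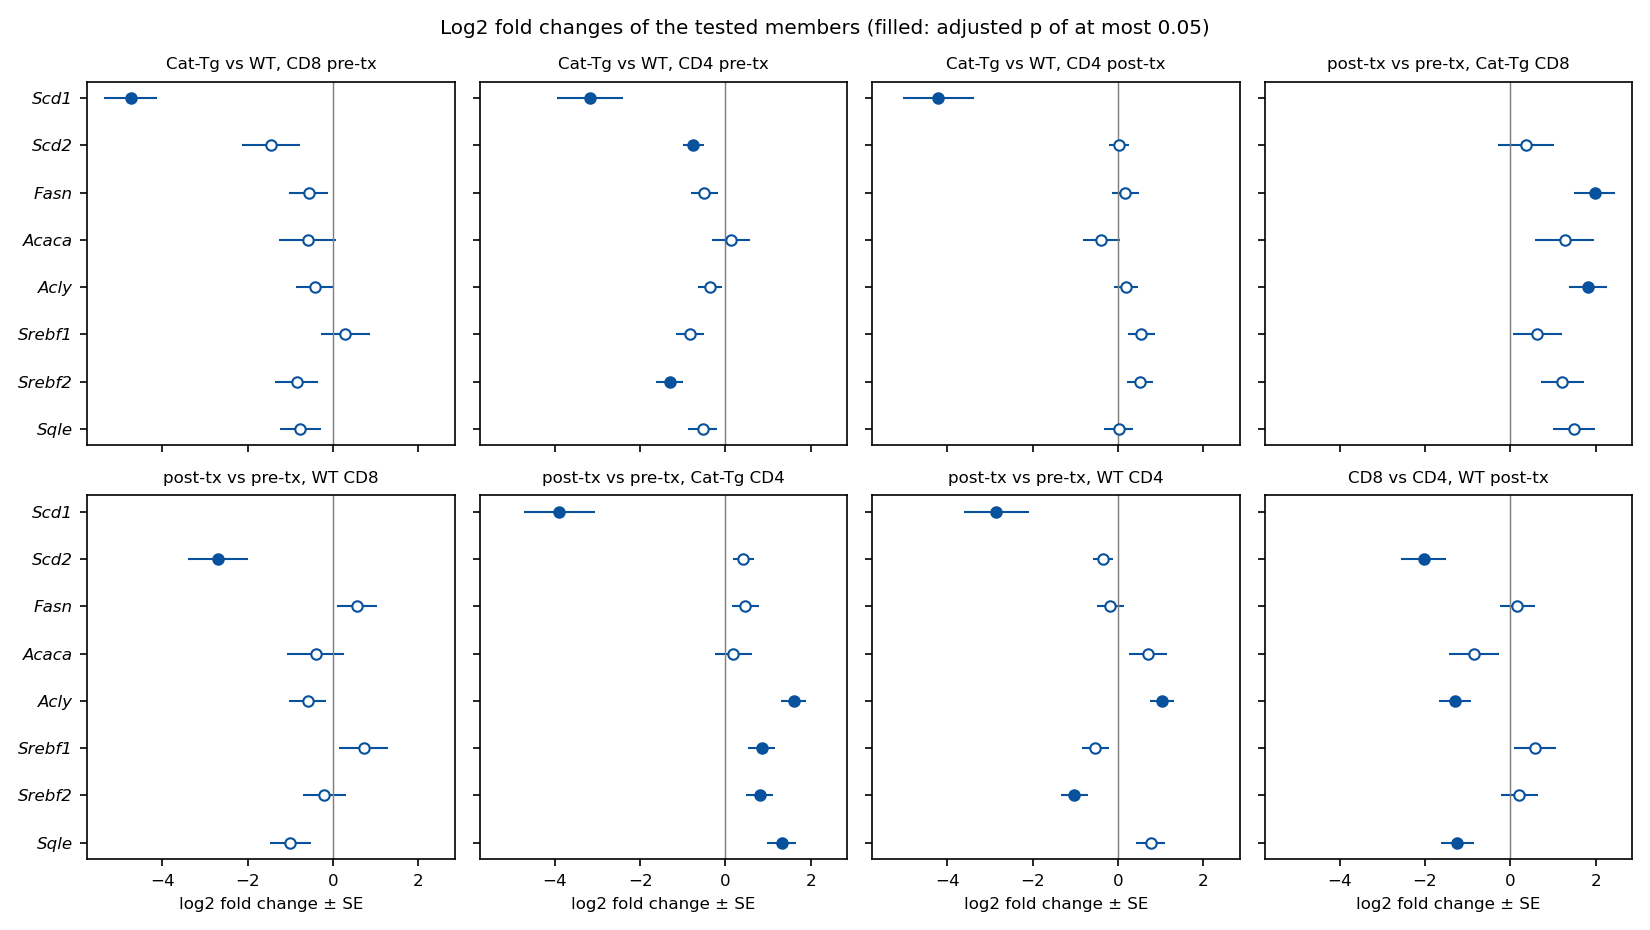
Fitted log2 fold change of the tested members in 8 comparisons, with bars of 1 SE, where filled points passed an adjusted p of 0.05, open points did not, and Scd1 has no point where it was not tested. Scd1 lies between -2.85 and -4.74 wherever it is plotted, and the other genes lie to the right of 0 in Cat-Tg post-tx against pre-tx and on both sides in WT.

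Set against all genes, the counts of members called were as follows. For Cat-Tg against WT in CD8 pre-tx, 0 of 8 were higher (4.51% of all genes) and 1 lower (4.48%), which is 12.5% of the members called against 8.99% of all genes, so the count itself is near the background. In CD4 pre-tx 0 were higher (13.3% of all genes) and 3 lower (7.18%), or 37.5% against 20.4%. In CD4 post-tx 0 were higher (3.69% of all genes) and 1 lower (6.48%), or 12.5% against 10.2%. The median log2 fold change of the members was -0.68, -0.64 and 0.1 in these 3 comparisons, and that of all genes was -0.07, 0.03 and -0.19. In CD8 post-tx, the contrast that chose Scd1, 3 of 8 members were higher with no overlap between groups (13.9% of all genes) and 1 was lower (11.5% of all genes).

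For post-tx against pre-tx, Cat-Tg CD8+ T cells had 2 of 7 tested members higher (8.73% of all genes) and 0 lower (5.25%), or 28.6% against 14%. Cat-Tg CD4+ T cells had 4 of 8 higher (16.2% of all genes) and 1 lower (29%), or 62.5% against 45.2%. The libraries labelled WT CD8 had 0 of 7 higher (13.2% of all genes) and 1 lower (10.4%), or 14.3% against 23.6%, which is below the background. Those labelled WT CD4 had 1 of 8 higher (14.8% of all genes) and 2 lower (9.64%), or 37.5% against 24.4%. The median log2 fold change of the tested members was 1.27 in Cat-Tg CD8 and 0.64 in Cat-Tg CD4, but -0.4 in WT CD8 and -0.26 in WT CD4. The medians of all genes were -0.26, -0.38, -0.23 and -0.14 in the same order. The Cat-Tg and WT comparisons of one cell type were fitted together, and each rests on its own 6 libraries. Genes of dividing cells rose beside the members in all 4, with 11 or 12 of 12 called, from sums of 64 to 260 CPM pre-tx to 675 to 2500 CPM post-tx, and their part in the members' changes was not tested.

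Between cell types, WT CD8 post-tx had 0 of 7 members higher (5.98% of all genes) and 3 lower (7.17%) than WT CD4 post-tx, or 42.9% against 13.1%. The CD8+ and CD4+ T cells of a group came from the same animals. The fit treated their libraries as independent, since the replicate numbers were not taken as pairs. In Cat-Tg, edgeR called 0 of 8 members between CD8 and CD4 pre-tx (0.367% of all genes higher, 1.16% lower and 1.52% in all) and 0 of 7 post-tx (1.49%, 4.51% and 6%). Of the same members 0 had an unadjusted p under 0.05, and DESeq2 and limma-voom also called 0 in both. The widest intervals of these differences belonged to the low genes, with a log2 fold change of -0.73 (SE 0.668) for Scd1 pre-tx and of 0.49 (SE 0.584) for Acaca post-tx. CD8+ and CD4+ T cells could not be compared in the libraries labelled WT pre-tx, whose coreceptor transcripts did not follow the labels. The difference in post-tx minus pre-tx change between libraries labelled CD8 and CD4 was called for 3 of 7 members in WT (15.8% of all genes), where it includes those libraries, and by edgeR for 0 of 7 in Cat-Tg (0.948%), where 0 had an unadjusted p under 0.05 and DESeq2 also called 0. The difference in genotype effect between post-tx and pre-tx libraries labelled CD4 was called for 2 of 8 (21.3% of all genes), near the background.

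In a wider list of 19 genes of cholesterol synthesis and transport, all genes called after transplantation were higher in Cat-Tg T cells and in WT CD4, and all but 1 in WT CD8. In Cat-Tg CD8+ T cells 6 of 19 were higher (8.73% of all genes) and 0 lower (5.25%), with a median log2 fold change of 1.21, against -0.26 over all genes. Those with the smallest adjusted p were Ebp, a sterol isomerase (log2 fold change 1.71, SE 0.383, adjusted p = 0.00908), Pmvk, phosphomevalonate kinase (2.29, SE 0.559, adjusted p = 0.0145), and Lss, lanosterol synthase (1.99, SE 0.556, adjusted p = 0.0286). In Cat-Tg CD4+ T cells 4 of 19 were higher (16.2% of all genes, so near the background) and 0 lower (29%), with a median of 0.64 against -0.38. The calls were led by Pmvk (1.62, SE 0.369, adjusted p = 0.00292), Ebp (1.02, SE 0.24, adjusted p = 0.00369) and Lss (1.5, SE 0.388, adjusted p = 0.0063). In WT CD8 4 were higher (13.2% of all genes) and 1 lower (10.4%), with a median of 0.51 against -0.23. Ebp rose (2.33, SE 0.391, adjusted p = 0.000538), as did Mvd, mevalonate decarboxylase (1.85, SE 0.507, adjusted p = 0.0149), and Pmvk (1.75, SE 0.548, adjusted p = 0.0303). In WT CD4 3 were higher (14.8% of all genes, so near the background) and 0 lower (9.64%), with a median of 0.41 against -0.14. Stard4, a sterol carrier, rose (1.56, SE 0.366, adjusted p = 0.00572), as did Sc5d, a sterol desaturase (1.26, SE 0.412, adjusted p = 0.0355), and Nsdhl, a sterol dehydrogenase (1.52, SE 0.501, adjusted p = 0.0371). Both WT comparisons start from the libraries labelled WT pre-tx.

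**Figure D4:**
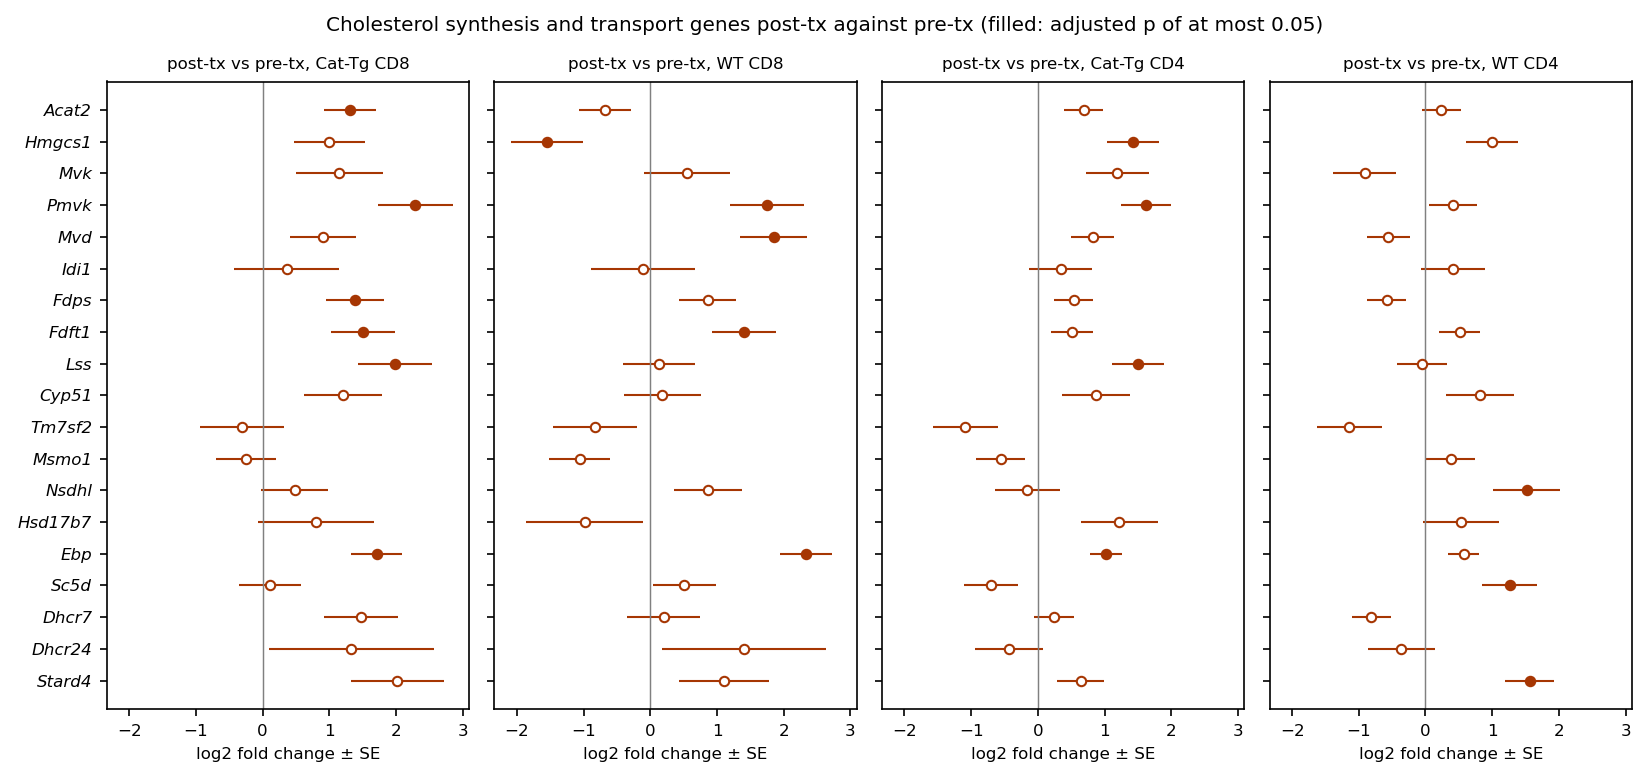
Fitted log2 fold change, post-tx minus pre-tx, of the 19 genes of cholesterol synthesis and transport in the 4 combinations of genotype and cell type, with bars of 1 SE, where filled points passed an adjusted p of 0.05. In Cat-Tg 17 of 19 genes lie above 0 in CD8 and 14 of 19 in CD4, with Pmvk at 2.29 and 1.62, and in WT 13 of 19 lie above 0 in CD8 and 12 of 19 in CD4.

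Of 14 further genes of fatty acid synthesis and desaturation, 2 were higher and 0 lower in Cat-Tg CD8 post-tx against pre-tx, a share near that of all genes (8.73% higher and 5.25% lower, 14% in all). The counts were 3 higher and 0 lower in Cat-Tg CD4 (16.2% and 29% of all genes), 2 and 0 in WT CD8 (13.2% and 10.4%) and 3 and 2 in WT CD4 (14.8% and 9.64%). Elovl1, an elongase of long-chain fatty acids, was called in all 4, with log2 fold changes of 2.29 (adjusted p = 0.00431), 2.19 (adjusted p = 3.8e-05), 1.98 (adjusted p = 0.00461) and 0.83 (adjusted p = 0.034) in that order. Mid1ip1, which activates acetyl-CoA carboxylase, rose in Cat-Tg CD8 (2.01, adjusted p = 0.0485) and Cat-Tg CD4 (1.87, adjusted p = 0.00136), and Fads1, a desaturase of polyunsaturated chains, rose in Cat-Tg CD4 (2.1, adjusted p = 0.000647). Tecr, which completes the elongation cycle, rose in WT CD8 (1.93, adjusted p = 0.0174), and Hacd3 (1.82, adjusted p = 0.000353) and Hsd17b12 (1.15, adjusted p = 0.0301), of the same cycle, in WT CD4. The median log2 fold change of this list was 0.09 in Cat-Tg CD8, -0.08 in Cat-Tg CD4, 0.64 in WT CD8 and 0 in WT CD4. In WT CD8 it was above that of the cholesterol list and in the other 3 comparisons below it, and the difference between the lists was not tested.

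Among 10 genes that control SREBP or respond to the liver X receptor (LXR), 0 were higher and 1 lower in Cat-Tg CD8, 5 and 2 in Cat-Tg CD4, 1 and 3 in WT CD8 and 0 and 2 in WT CD4, to be read against the shares of all genes just given. Abca1, the cholesterol exporter induced by LXR, fell in all 4 comparisons: in Cat-Tg CD8 (log2 fold change -4.35, adjusted p = 0.00211), Cat-Tg CD4 (-1.81, adjusted p = 0.022), WT CD8 (-5.56, adjusted p = 0.000193) and WT CD4 (-2.68, adjusted p = 0.00522). Mylip, an LXR-induced ubiquitin ligase, fell in WT CD8 (-2.79, adjusted p = 0.00173) and WT CD4 (-1.19, adjusted p = 0.0177), and Abcg1 fell in WT CD8 (-2.02, adjusted p = 0.00559). In Cat-Tg CD4, beside the fall of Abca1, the LXR genes Nr1h3 (1.82, adjusted p = 0.0018) and Nr1h2 (1.13, adjusted p = 0.0211) rose, with Insig1, which retains SREBPs in the endoplasmic reticulum (1.34, adjusted p = 0.0121). Abcg1, which fell in WT CD8, rose in Cat-Tg CD4 (0.71, adjusted p = 0.0314). Nr1h3 is also abundant in macrophages, and the sum of 12 myeloid genes was 3770 to 5420 CPM in Cat-Tg CD4 post-tx and 1420 to 2120 CPM in Cat-Tg CD4 pre-tx. Its part in these changes was not tested.

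Of 11 genes of glycerolipid synthesis, 7 were higher and 0 lower in Cat-Tg CD4 post-tx (16.2% and 29% of all genes). They were led by Dgat2, which makes triglyceride (log2 fold change 3.89, adjusted p = 6.86e-05), Lpin1, a phosphatidate phosphatase (2.82, adjusted p = 0.00173), and Pcyt1a, of phosphatidylcholine synthesis (1.5, adjusted p = 0.0103). Cat-Tg CD8 had 2 higher and 1 lower (8.73% and 5.25% of all genes), with Lpin1 (2.1, adjusted p = 0.00495) and Dgat1 (1.75, adjusted p = 0.039) higher. The lower gene was Acsl3, an acyl-CoA synthetase (adjusted p = 0.0103), at 3.32 ± 2.78 CPM pre-tx and 0.0107 ± 0.0186 CPM post-tx, a level too low for a fold change. WT CD8 had 2 higher and 2 lower (13.2% and 10.4% of all genes). Agpat3, an acyltransferase of phosphatidic acid synthesis, rose (2.05, adjusted p = 0.00548), Chka, choline kinase, fell (-2.77, adjusted p = 0.0107), and Acsl3 went from 7.83 ± 5.17 to 0.0665 ± 0.115 CPM (adjusted p = 0.00816). WT CD4 had 3 higher and 0 lower (14.8% and 9.64% of all genes). The higher genes were the acyl-CoA synthetases Acsl5 (1.9, adjusted p = 0.00146) and Acsl4 (1.62, adjusted p = 0.0244) and the acyltransferase Agpat5 (1.37, adjusted p = 0.0126).

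Of the genes of fatty acid oxidation, which burns what the members make, 3 of 12 were higher in Cat-Tg CD8 (8.73% of all genes), 4 of 12 in WT CD8 (13.2%), 5 of 11 in Cat-Tg CD4 (16.2%) and 4 of 11 in WT CD4 (14.8%), with 0 lower in each, and the others did not pass. Etfb, a subunit of the electron transfer flavoprotein, rose in Cat-Tg CD8 (log2 fold change 1.97, adjusted p = 0.00328), Cat-Tg CD4 (1.24, adjusted p = 0.00442) and WT CD8 (3.07, adjusted p = 5.75e-05). Cpt1a, which admits fatty acids to mitochondria, rose in Cat-Tg CD8 (1.87, adjusted p = 0.00564), in Cat-Tg CD4 (0.87, adjusted p = 0.038) and in WT CD4 (2.24, adjusted p = 0.000189). Slc25a20, the carnitine carrier, rose in WT CD8 (1.91, adjusted p = 0.00268) and WT CD4 (1.46, adjusted p = 0.000287), and Hadha, of the trifunctional protein, in Cat-Tg CD4 (1.19, adjusted p = 0.00088).

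The other lipid genes were compared between genotypes as well. In CD8 pre-tx the 19 cholesterol genes, with none called by edgeR, had a median log2 fold change of -0.51, and 4 of them lay above 0. Nr1h3 (log2 fold change -2.88, adjusted p = 0.0163) and Chka (-2.57, adjusted p = 0.0335), were lower in Cat-Tg. Acaa2 (1.99, adjusted p = 0.00376) and Slc25a20 (1.41, adjusted p = 0.0343), of fatty acid oxidation, were higher. The lower genes were 1 of 10 SREBP and LXR genes and 1 of 11 glycerolipid genes, against 4.48% of all genes. The higher ones were 2 of 12 oxidation genes, against 4.51% of all genes. In CD4 pre-tx 2 of 19 cholesterol genes were higher and 2 lower, with Sc5d (1.7, adjusted p = 0.00855) and Nsdhl (1.6, adjusted p = 0.0339) higher and Fdps, farnesyl diphosphate synthase, lower (-1, adjusted p = 0.023), against 13.3% and 7.18% of all genes. Of the 14 fatty acid synthesis genes 2 were higher and 3 lower, with Hacd3 higher (1.82, adjusted p = 0.000474) and Elovl1 (-1.42, adjusted p = 0.00171) and Mid1ip1 (-1.85, adjusted p = 0.00258) lower. Among glycerolipid genes Dgat2 was lower (-2.34, adjusted p = 0.00387) and Acsl4 higher (1.8, adjusted p = 0.0161), and among SREBP and LXR genes Insig2 was higher (1.41, adjusted p = 0.0147) and Scap, the escort of SREBPs, lower (-0.88, adjusted p = 0.0442). Of the oxidation genes 5 of 11 were higher and 1 lower, led by Slc25a20 (1.33, adjusted p = 0.000751), Cpt1a (1.48, adjusted p = 0.00437) and Acadm, an acyl-CoA dehydrogenase (1.51, adjusted p = 0.00483). For all these lists in CD4 pre-tx the shares of all genes were 13.3% higher and 7.18% lower. In CD4 post-tx the calls were 3 genes outside the cholesterol list, all higher: Acacb, the mitochondrial acetyl-CoA carboxylase (3.65, adjusted p = 0.0468), Abcg1 (1.33, adjusted p = 0.0045) and Nr1h3 (1.93, adjusted p = 0.00529). Beside them 9 of 12 myeloid genes were higher in Cat-Tg, with sums of 3770 to 5420 CPM against 870 to 1290 CPM in WT, and 8 of 8 red cell genes. Their part in these 3 calls was not tested. Both pre-tx comparisons rest on the libraries labelled WT pre-tx, with the B cell and T cell sums given above.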

How the data were processed

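RNA was extracted from sorted CD8+ and CD4+ T cells and made into cDNA with the SMARTseq HT kit and into libraries with Nextera XT, which does not mark strand. The authors quantified each library with kallisto 0.46.2 and deposited, for each of 117497 transcripts, estimated counts (expected counts that need not be whole) and TPM. The processing notes also name the build mm9 and limma, and the annotation release of the transcript index is not given in the sources used here. Transcript identifiers without version were matched to GENCODE M21 (GRCm38) for names only. 116428 of them matched, which held 99.64% to 99.76% of the counts, and 1069 did not. The deposited estimated counts were summed to gene symbols and rounded. The deposited TPM values were summed as well and used for comparing genes with each other. Levels are CPM after TMM scaling over all 24 libraries.

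Genes over 1 CPM in at least 3 libraries of a fit were tested by edgeR's quasi-likelihood test (edgeR 4.0.16, robust, R 4.3.3) with TMM on the 12 libraries of a cell type, or on all 24 between cell types and for differences in transplantation effect. TMM was recomputed in each fit, so fitted fold changes differ somewhat from ratios of the printed levels. Adjusted p is Benjamini-Hochberg over all 15975, 17243 or 19092 genes tested in CD8+, CD4+ or all libraries, with calls at 0.05. The study's methods used limma and voom on TPM. The procedure was tested on simulated counts. Replicates were separate mice or recipients, and no 2 libraries of a group agreed within sampling noise. Intervals and the floor of 3 counts cover counting error only.

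The members and all gene lists were chosen with earlier results of these data known. Genes of the pathway lists are named where called, at most 3 per list and comparison from those with the smallest adjusted p, leaving out comparisons between cell types. The further values of Abca1, Abcg1 and Cpt1a in Cat-Tg CD4 were added after they were seen. From the marker lists genes are named only at the limit of detection, and for Scd1, Scd2 and Sqle the 5 genes most alike. Alternatives were DESeq2 1.42.0, limma-voom (limma 3.58.1), other scaling, filters, library sets, length-scaled TPM, a fold minimum, a smooth term of gene length (mgcv 1.9.3), a replicate block and leaving out each library. After seeing the data, fits without the libraries labelled WT pre-tx, CD8 post-tx means without WT replicate 2 and more left-out libraries were added. Pathway genes were fitted between genotypes in CD8 post-tx with all other genes, and their calls in that contrast are not reported here. A few genes of the cholesterol list are not reported here and are left out of its counts.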

Additional observations from a re-analysis of the deposited data

Results flagged for a closer look

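5 results were singled out because an effect differed between groups by a test of the difference itself (edgeR's quasi-likelihood test). The genotype effect, Cat-Tg minus WT, differed between the post-tx and pre-tx libraries labelled CD4 for Srebf1 by 1.38 on the log2 scale (adjusted p = 0.0414) and for Srebf2 by 1.82 (adjusted p = 0.00972). The transplantation effect, post-tx minus pre-tx, differed between libraries labelled WT CD8 and WT CD4 for Scd2 by -2.33 (adjusted p = 0.03), for Acly by -1.62 (adjusted p = 0.037) and for Sqle by -1.77 (adjusted p = 0.0318). The call of Srebf2 was kept in all 14 alternatives run, and those of Srebf1, Scd2, Acly and Sqle were lost in 8, 6, 9 and 8 of 14, with adjusted p up to 0.0981, 0.148, 0.245 and 0.116. All 5 use the libraries labelled WT pre-tx, whose coreceptor transcripts do not follow the CD8 and CD4 labels, so no value without these libraries exists, and the last 3 also use WT CD8 post-tx replicate 2.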

How the results depend on the processing

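Of the 24 member results called by edgeR, 6 were called under every alternative run: Scd1 and Srebf2 in Cat-Tg against WT (CD8 pre-tx and CD4 pre-tx in that order), Scd1, Acly and Sqle in Cat-Tg CD4 post-tx against pre-tx, and the interaction of Srebf2. Over their 366 alternatives, 90 were not called and 0 took the opposite direction. Of 72 member results not called, 9 were called under some alternative and 30 changed direction under some. Of 90 results of named pathway genes, 47 were called under every alternative and 0 changed direction. Of 208 counts of members called, 170 stayed within 1.5 times. The cause of the changes listed next was not tested. With limma-voom the count was 2 in place of 1 for Cat-Tg against WT CD8 pre-tx and 3 in place of 5 for Cat-Tg CD4 post-tx against pre-tx, where a minimum log2 fold change of 1 also gave 3. With no filter it was 0 in place of 1 for Cat-Tg against WT CD4 post-tx and 1 in place of 3 for WT CD8 against CD4 post-tx. When only the 6 libraries compared were fitted it was 4 in place of 2 for Cat-Tg CD8 post-tx against pre-tx and 0 in place of 3 for WT CD8 against CD4 post-tx. With the gene length offset it was 0 in place of 1 for WT CD8 post-tx against pre-tx, 0 in place of 3 for WT CD8 against CD4 post-tx, 1 in place of 2 for the CD4 interaction and 0 in place of 3 for the WT interaction.

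Without 1 library at a time the counts ranged from 1 to 2 for Cat-Tg against WT CD8 pre-tx, from 2 to 4 in CD4 pre-tx and from 1 to 1 in CD4 post-tx. For post-tx against pre-tx they ranged from 0 to 2 in Cat-Tg CD8, from 1 to 2 in WT CD8, from 3 to 5 in Cat-Tg CD4 and from 1 to 2 in WT CD4. For WT CD8 against CD4 post-tx they ranged from 0 to 3, for the CD4 interaction from 1 to 3 and for the WT interaction from 0 to 3.

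The correlation of the deviations of same-numbered libraries was over 0.1 in all 3 pairs, the minimum set for a pairing, in no comparison (r from -0.236 to 0.193), so the numbers were not taken as pairs. It was above 0 in all 3 pairs, with every library correlating best with its own number, in Cat-Tg against WT CD8 pre-tx and in Cat-Tg CD4 post-tx against pre-tx. A replicate block gave a count of 0 in place of 1 for Cat-Tg against WT CD4 post-tx. The block ended the calls of Scd1 (adjusted p = 0.088) and Scd2 (0.0572) in Cat-Tg against WT CD4 pre-tx, of Scd1 in CD4 post-tx (0.162), of Srebf1 in Cat-Tg CD4 post-tx against pre-tx (0.0724) and of Sqle in WT CD8 against CD4 post-tx (0.0842), and no other call of a member.

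Scd1 in Cat-Tg CD8 post-tx rests on 3 to 19 counts a library. Scd3 and Scd4, which share 31-base words with Scd1, were at overlapping levels there. Comparisons with the libraries labelled WT pre-tx carry their cell type makeup.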
